A study of Homo sapiens with 3 samples.

Results

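The baseline transcriptome of HepG2, a cell line established from a human liver carcinoma, was described from the PBS library, which is 1 of the 3 libraries of the study. It was chosen as the library labelled with PBS for 48 h, and all 62680 gene rows of its column were ranked by level and by share of counts, with no ratio to the other libraries. All cells were wild-type HepG2 grown in DMEM with fetal bovine serum and antibiotics. The other libraries came from cells given 20 µM of A740003 or 20 µM of A438079, antagonists of the ATP-gated channel P2X7, for the same 48 h, and enter no comparison here. The PBS library is 1 culture of 1 line with no replicate, so nothing was tested. Every interval below is an exact Clopper-Pearson or conditional binomial 95% interval that covers counting error only.

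Hepatocytes make most plasma proteins, dispose of ammonia through the urea cycle, and oxidise and conjugate drugs and bile acids. A network of transcription factors, among them HNF4A, FOXA and C/EBP proteins, keeps these genes on. Liver tumours often re-express genes of the fetal liver such as AFP, while the cytochrome P450 enzymes that clear drugs belong to the mature hepatocyte and are known to be poorly kept in culture.

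The library held 19375523 expected counts, and 19804 rows were above 0. Levels are given as FPKM, the fragments of a gene scaled for transcript length and library size, and levels of different genes are compared by FPKM, with counts given for depth and for shares of the library. A row at or above 1 FPKM is called detected, which applied to 12072 rows (19.3% of all rows) and to 10420 of 19727 protein-coding rows (52.8%). The median protein-coding row stood at 1.51 FPKM, and the median detected one at 13.6 FPKM and 589 counts. A count of 0 allows up to 3 counts, or 0.155 CPM, counts scaled for library size, at this depth.

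The labelled cell type was checked against hepatocyte markers. ALB, APOA1, APOB, TTR, SERPINA1, FGB, HNF4A, FOXA2 and CEBPA were all detected, from 10.4 FPKM for FOXA2 to 3755 FPKM for ALB. The 6 hepatoblast and liver tumour markers AFP, GPC3, IGF2, H19, DLK1 and EPCAM were also detected, from 1.69 FPKM for H19 to 598 FPKM for AFP. Markers of other liver cells are given after the tumour genes.

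To show the regulatory letters upstream of the abundant plasma protein genes, the 250 bases before the RefSeq transcription start were read for the members of the liver lists with the highest FPKM (GRCh38.p14). Of the 10 highest members, 4 are printed that hold, in capitals, a short motif known from promoters of liver genes. ALB (chr4:73404037-73404286, plus strand), SERPINA1 (chr14:94388603-94388852, minus strand) and APOH (chr17:66229416-66229665, minus strand) hold the letters GTTAAT or its reverse complement ATTAAC. AHSG (chr3:186612810-186613059, plus strand) holds TGGACTTTG, the reverse complement of the HNF4 core CAAAGTCCA. All 4 windows overlap the span of their gene in GENCODE release 29 (GRCh38), so that span begins upstream of the RefSeq start used. Starts of single transcripts were not compared.
ALB: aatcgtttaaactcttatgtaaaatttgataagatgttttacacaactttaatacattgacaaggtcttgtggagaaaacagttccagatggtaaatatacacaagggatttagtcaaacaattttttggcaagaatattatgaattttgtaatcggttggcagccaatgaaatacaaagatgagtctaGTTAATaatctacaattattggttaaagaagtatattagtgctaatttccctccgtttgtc
SERPINA1: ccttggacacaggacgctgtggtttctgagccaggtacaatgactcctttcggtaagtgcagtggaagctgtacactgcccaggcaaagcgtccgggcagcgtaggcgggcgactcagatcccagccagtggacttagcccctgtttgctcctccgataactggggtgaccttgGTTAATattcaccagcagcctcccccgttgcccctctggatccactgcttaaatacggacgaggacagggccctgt
APOH: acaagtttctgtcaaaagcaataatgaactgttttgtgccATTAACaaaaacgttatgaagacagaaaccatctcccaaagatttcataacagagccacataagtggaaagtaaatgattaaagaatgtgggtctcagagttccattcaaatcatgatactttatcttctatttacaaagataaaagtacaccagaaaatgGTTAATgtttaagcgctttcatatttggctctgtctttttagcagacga
AHSG: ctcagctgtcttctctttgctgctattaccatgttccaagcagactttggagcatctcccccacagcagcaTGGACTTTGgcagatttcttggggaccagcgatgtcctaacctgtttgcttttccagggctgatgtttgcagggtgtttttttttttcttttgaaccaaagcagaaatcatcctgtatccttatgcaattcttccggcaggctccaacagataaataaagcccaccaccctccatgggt
The match nearest to the start lay 61 bases before it in ALB, 76 in SERPINA1, 49 in APOH and 179 in AHSG, and the further match of APOH lay 210 bases before it.

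Both strands of 35116 RefSeq windows of 250 bases were searched for 4 motifs. Of the 20 highest members of the liver lists, 15 had a window, and APOA1, ITIH2, A2M, APOB and FGL1 had none. GTTAAT was present in 5 of the 15 (ALB, SERPINA1, APOH, FGA and AFP) and in 6.23% of all windows. CAAAGTCCA was present in 1 of the 15 (AHSG) and in 0.325% of all windows. The C/EBP palindrome TTGCGCAA was in 0 of the 15 and in 0.131% of all windows. No motif contains another. The TATA box letters TATAAA were in 2 of the 15 (SELENOP and AFP) and in 10.7% of all windows. A match describes letters only and does not show that a factor was bound.

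Counts were concentrated in few rows. The row with the most counts held 3.02% of the library, the top 10 held 12.2% (95% interval 12.2 to 12.2), the top 100 held 29.5% and the top 1000 held 61.9%. MT-RNR2, the large ribosomal RNA of the mitochondrion, came first with 585870 counts. EEF1A1, the elongation factor that brings aminoacyl-tRNA to the ribosome, followed with 376142 counts, and MT-CO1, a subunit of cytochrome c oxidase, with 371659. The plasma protein genes ALB (125391 counts) and APOB (119636 counts) ranked 8 and 9 by counts.

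**Figure D1:**
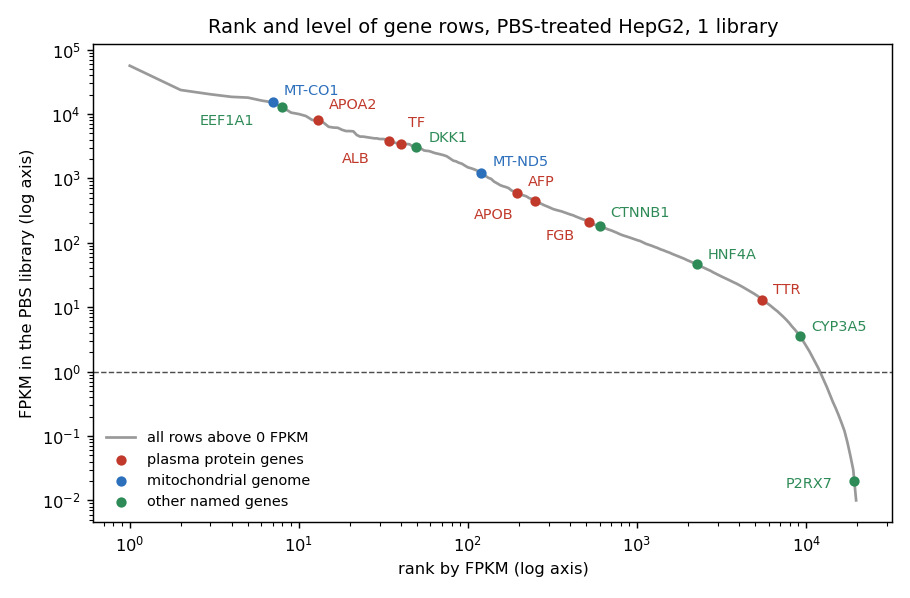
FPKM of every row above 0 in the PBS library (y axis, log scale) against its rank (x axis, log scale), with named genes as coloured points. ALB ranks 34, AFP 194, HNF4A 2256, TTR 5499 and P2RX7 19181; the dashed line is 1 FPKM.

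The mitochondrial genome gave 10.3% of counts (10.3 to 10.4) from 37 rows. Its 13 mRNAs, which encode subunits of the respiratory chain and of ATP synthase, held 7.04% and its 2 ribosomal RNAs 3.30%. MT-CO2 stood at 20222 FPKM, MT-CO3 at 16173 FPKM and MT-ND4, a subunit of complex I, at 9975 FPKM. MT-ND5 (1208 FPKM) and MT-ND6 (1741 FPKM), which is encoded on the opposite strand to the others, were the lowest of the 13. MT-ATP8, a small ATP synthase subunit, ranked 1 by FPKM with 56149 although its 14946 counts ranked 156. Its reading frame overlaps that of MT-ATP6, as MT-ND4L overlaps MT-ND4, so counts between these neighbours are uncertain.

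The rank of MT-ATP8 moved with the length in its FPKM. The count and the FPKM together imply a length of 13.7 nt for MT-ATP8, against 207 nt in the annotation. Over 265 genes with 1 annotated transcript, the implied length was shorter than the transcript by a median of 290 nt (quartiles 268 and 379). With the full length, MT-ATP8 stood at 3726 FPKM and ranked 11, and MT-ND4L moved from 17944 to 3299 FPKM. In all, 220 detected rows had an implied length under 100 nt and held 11.99% of summed FPKM but 0.467% of counts. RPL39P3, a pseudogene of a ribosomal protein gene, had 276 counts and 3527 FPKM, or 91.3 FPKM with its full length. FPKM of genes with short transcripts is inflated in this way, and full-length values are given for some of them.

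**Figure D2:**
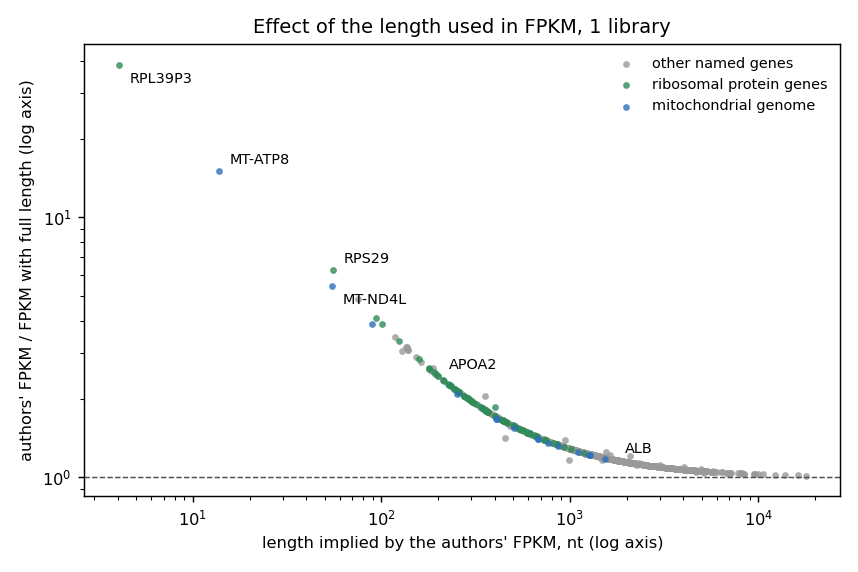
Ratio of the authors' FPKM to the FPKM recomputed with full transcript length (y axis, log scale) against the length implied by the authors' values (x axis in nt, log scale) for named genes of the PBS library. The ratio rises as the implied length falls, with MT-ATP8 at an implied 13.7 nt and RPL39P3 at 4.04 nt, and is near 1 for long transcripts such as ALB.

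Genes of protein synthesis made up most of the highest nuclear rows. Of the 100 protein-coding nuclear rows with the highest FPKM, 64 encoded cytosolic ribosomal proteins, 7 glycolytic or translation proteins, 6 chaperones and 6 secreted liver proteins. The 86 ribosomal protein genes had a median of 2166 FPKM and held 7.43% of counts, and 83 of them were detected. For 60 of the 86 the expected count was not whole, so their reads may be shared with pseudogenes. RPL9 had 1437 counts, while a row that GENCODE names RPL9P9, a pseudogene of it (ENSG00000237550), had 37643. The 2 cannot be separated here.

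Chaperones and glycolytic enzymes were also among the most abundant. HSP90AB1, a cytosolic HSP90, had 108780 counts (2463 FPKM), and the mitochondrial chaperonin HSPD1 had 78445 (2056 FPKM). The glycolytic enzyme ENO1 had 83300 counts (3252 FPKM), and LDHA, which converts pyruvate to lactate, had 42076 (1481 FPKM). All 20 chaperone genes and all 20 glycolytic and translation genes were detected. SCD, the desaturase that makes oleic acid, had 54937 counts (571 FPKM), and PLA2G2A, a secreted phospholipase, 13828 (1244 FPKM). The keratins KRT8 (1260 FPKM) and KRT18 (639 FPKM), which form the filaments of hepatocytes, stood high, whereas the mesenchymal filament gene VIM was listed at 0. TMSB10, an actin-binding peptide gene, stood at 1439 FPKM, or 547 with its full length, and its relative TMSB4X had 2 counts.

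Lists made up mostly, but not only, of secreted products of hepatocytes formed 4.24% of counts (4.24 to 4.25). They held 112 genes of carriers, apolipoproteins and lipoprotein assembly, protease inhibitors, coagulation factors, complement and acute phase proteins. Of these, 80 were detected, 32 were below 1 FPKM and 14 were at 0. Their median was 22.4 FPKM, beside 1.51 FPKM for all protein-coding rows. Levels within the set ranged from 0 to 8003 FPKM, and 5 genes gave 50% of the set's counts.

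ALB, the main protein of plasma (ENSG00000163631, on chromosome 4 from 73397114 to 73421412, plus strand in GENCODE release 29), stood at 3755 FPKM with 0.647% of counts (0.644 to 0.651). TF, the iron carrier transferrin, stood at 3479 FPKM with 0.426% of counts. Next among the carriers came AHSG at 1005 FPKM, AMBP at 792 and SELENOP, a selenium carrier, at 779. Binding proteins for retinol and thyroid hormone, RBP4 and SERPINA7, stood at 314 and 132 FPKM. TTR, another carrier of thyroid hormone, was far lower at 13.1 FPKM and 88 counts. Haptoglobin (HP) stood at 32.4 FPKM, and hemopexin (HPX), which binds haem, at 0.72. The vitamin D carrier GC and the genes HRG and LECT2 were listed at 0, so 18 of 22 carriers were detected.

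Apolipoproteins spanned a wide range. APOA2 of high-density lipoprotein ranked 13 at 8003 FPKM, or 3259 FPKM with its full length. APOA1, the main protein of the same particle, stood at 1815 FPKM and APOH at 1576. APOB, the structural protein of very-low-density lipoprotein, had 119636 counts but 447 FPKM, since its transcript is long. MTTP, which loads lipid onto APOB, stood at 19.5 FPKM. APOC3, an inhibitor of lipoprotein lipase, stood at 78.9 FPKM, while CETP had 7 counts and LPA and APOC4 were listed at 0. Of the 22 genes, 18 were detected.

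Among protease inhibitors, SERPINA1 (alpha-1 antitrypsin) stood at 1853 FPKM, ITIH2 at 777 FPKM and A2M at 540.0 FPKM. Antithrombin (SERPINC1) was lower at 50.1 FPKM. ITIH1 (0.64 FPKM) and ITIH4 (0.04 FPKM) belong to the same family as ITIH2 and were not detected. Neither was SPINK1, a trypsin inhibitor, with 1 count. In all, 13 of 17 were detected.

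The 3 fibrinogen chains, which assemble in equal number into 1 protein, had unequal levels. FGG stood at 1020 FPKM and FGA at 736, and FGB was lowest at 213 FPKM and 3372 counts. TFPI, the inhibitor of the tissue factor pathway, stood at 591 FPKM and prothrombin (F2) at 96.3 FPKM. F9 and F13A1 were listed at 0, F12 had 2 counts and plasminogen (PLG) stood at 0.56 FPKM, which left 13 of 20 coagulation genes detected.

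Complement genes were detected for 15 of 21 members, led by C3 at 192 FPKM and the protease CFI at 141. C4A and C4B, near-identical copies, had 2724 counts together. C7 and C9 were listed at 0. Of a separate list of 10 acute phase genes, 3 were detected, with FGL1 at 392.2 FPKM and the iron hormone HAMP at 27.0 (10.8 with its full length), while CRP, SAA1 and APCS were listed at 0. Other genes of the acute phase are in the lists above and varied. SERPINA1, FGG and C3 were high, and ORM1 stood at 292 FPKM. HP and CP were lower at 32.4 and 29.4 FPKM, and HPX (0.72 FPKM) and ITIH4 (0.04 FPKM) were not detected.

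**Figure D3:**
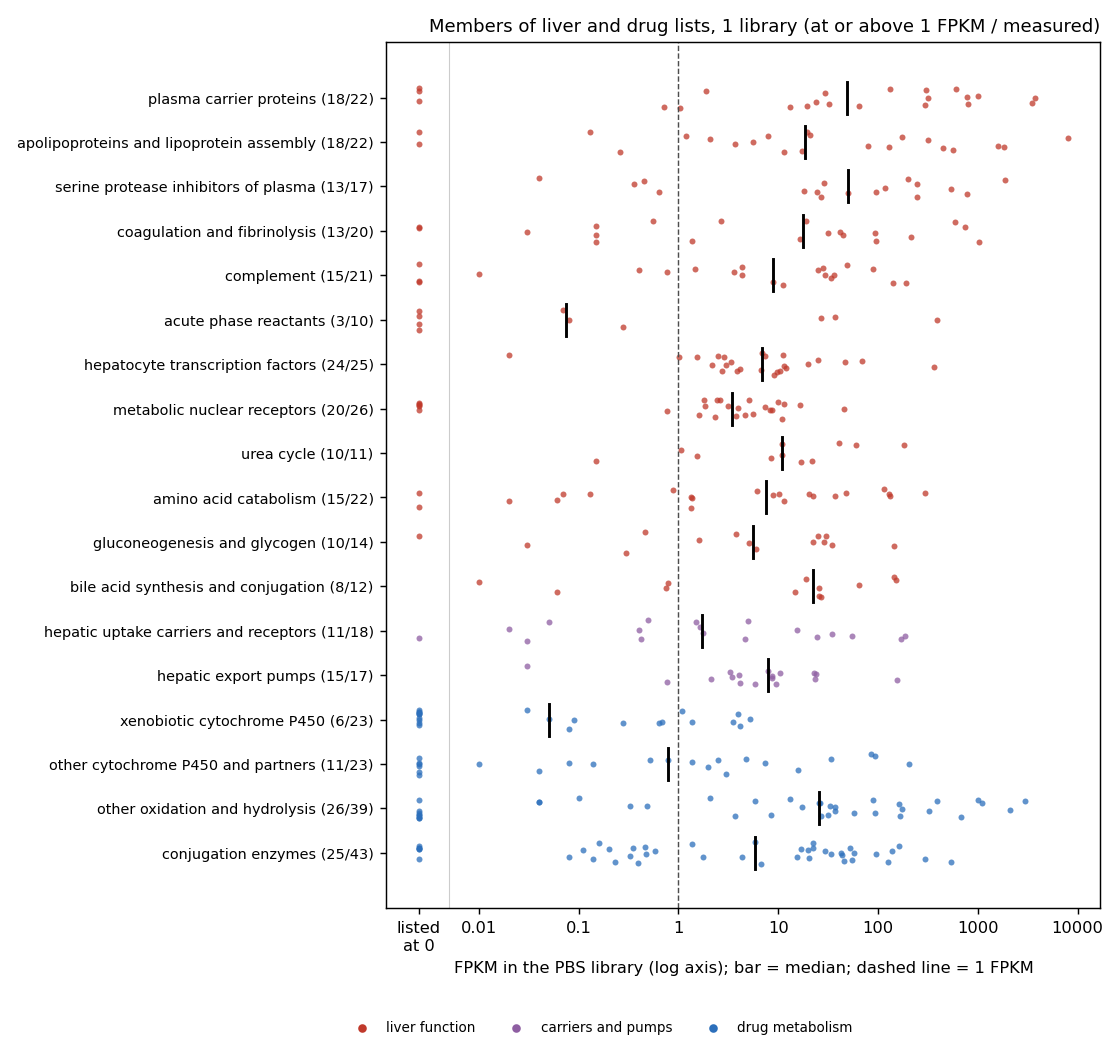
FPKM in the PBS library (x axis, log scale, with rows listed at 0 at the left) of each member of the liver, transport and drug metabolism lists (1 point a gene). Black bars are medians, and the numbers give members at or above 1 FPKM of those measured, from 24 of 25 transcription factors to 6 of 23 xenobiotic cytochrome P450 genes.

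The transcription factors of hepatocyte identity were nearly all present at modest level. Of 25 genes, 24 were detected, with a median of 6.79 FPKM. XBP1, a regulator of the secretory pathway, was highest at 361 FPKM. HNF4A (ENSG00000101076; chromosome 20, 44355700 to 44434596, plus strand) stood at 46.4 FPKM, CEBPA at 19.9, FOXA1 at 11.9 and FOXA2 at 10.4. ONECUT1 (HNF6) lay at the threshold with 1.01 FPKM, and KLF15 had 1 count.

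Of 26 nuclear receptors and partners, 20 were detected. The bile acid receptor NR1H4 (FXR) led at 45.4 FPKM, and the oxysterol receptor NR1H3 (LXR alpha) stood at 16.6. The drug sensors NR1I2 (PXR), AHR and NR1I3 (CAR) stood at 7.44, 3.91 and 1.61 FPKM. VDR, ESR1, RXRG and RARB were listed at 0.

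Liver metabolism was present unevenly. In the urea cycle list 10 of 11 genes were detected. ASS1 stood at 40.7 FPKM, ASL at 21.9 and CPS1, which fixes ammonia, at 10.9. ARG1, which releases urea, was near the threshold at 1.52 FPKM and 13 counts, and OTC, which makes citrulline, had 1 count. With full transcript length ARG1 and NAGS, which makes the activator of CPS1, both stood at 0.92 FPKM, which left 8 of 11 detected. The list therefore held 1 step of the cycle with almost no transcript.

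Amino acid breakdown showed the same unevenness, with 15 of 22 genes detected. HPD, HGD and FAH of tyrosine breakdown stood at 133, 129 and 47.9 FPKM. TAT, the first enzyme of that route, was below the threshold at 0.88 FPKM. TDO2, which opens tryptophan breakdown, had 2 counts, and SDS and GLYAT were listed at 0.

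Of 14 genes of glucose release and glycogen, 10 were detected. UGP2 led at 146 FPKM. Enzymes of gluconeogenesis varied. FBP1 stood at 1.61 FPKM, G6PC1 at 0.3 and PCK1 at 0.03, while PC stood at 6.01 and PCK2 at 34.2. In bile acid synthesis, 8 of 12 were detected: CYP27A1 of the alternative route stood at 63.7 FPKM, while CYP7A1, the rate-limiting enzyme of the classical route, stood at 0.79 and CYP8B1 at 0.06. CYP7B1, which follows CYP27A1 in the alternative route, had 1 count (0.01 FPKM).

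Over the 12 liver lists, 167 of 222 genes (75.2%) were detected, beside 52.8% of protein-coding rows, with a median of 9.83 FPKM.

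The list of uptake carriers and receptors had a lower median than that of export pumps, at 1.71 and 7.89 FPKM. ASGR1 and ASGR2, which form the asialoglycoprotein receptor of hepatocytes, stood at 188 and 171 FPKM. The bile acid carrier SLC10A1 and the anion carrier SLCO1B1 had 1 count each, and SLCO1B3 was listed at 0. In all 11 of 18 genes of the carrier and receptor list were detected (61.1%, beside 52.8% of protein-coding rows). Of the export pumps, 15 of 17 were detected (88.2%, beside the same 52.8%). ABCC2, which exports conjugates, stood at 154 FPKM, ABCB1 at 24.0 and ABCG2 at 23.6, and ABCB11, the bile salt export pump, had 4 counts.

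Cytochrome P450 genes of the families that oxidise drugs were nearly absent, though not every member of these families acts mainly on drugs. Of 23 genes, 6 were detected (26.1%, beside 52.8% of protein-coding rows), 10 were at 0 and the median was 0.05 FPKM. Together they held 0.00337% of counts (0.00311 to 0.00363). The highest was CYP2J2 at 5.15 FPKM and 161 counts. CYP2S1 stood at 4.17 FPKM, CYP2R1 at 3.92 and CYP3A5 at 3.55. CYP1A1, the target of the dioxin receptor, had 41 counts (1.09 FPKM), and CYP3A43 passed the threshold on 2 counts and stood at 0.28 FPKM with its full length.

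The main drug-clearing enzymes of adult liver were at or near 0. CYP3A4, CYP1A2, CYP2E1, CYP2A6 and CYP2C19 were listed at 0, which allows up to 0.155 CPM. CYP2D6 had 2 counts and CYP2B6 had 11. The fetal form CYP3A7 had 22 counts (0.64 FPKM). The electron donors of these enzymes were present, with POR at 84.8 FPKM and CYB5A at 204, and so was CYP51A1 of cholesterol synthesis at 92.9 FPKM.

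Other oxidising and hydrolysing enzymes had a higher median by contrast, at 25.6 FPKM. Of 39 genes, 26 were detected (66.7%, beside 52.8% of protein-coding rows) and 8 were at 0. The aldo-keto reductases AKR1C2, AKR1C1 and AKR1C3 stood at 2967, 2109 and 1091 FPKM. Their copies are near-identical and their counts were not whole, so the 4 AKR1C genes were also summed. They had 109020 counts together, or 43.6% of the counts of all drug metabolism lists. NQO1, a quinone reductase, stood at 993 FPKM, ALDH1A1 at 671, ADH5 at 385 and the carboxylesterase CES1 at 164. The ethanol-oxidising genes ADH1A and ADH1B had 1 count each and ADH1C was listed at 0, as was the monooxygenase FMO1.

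Of 43 conjugating enzymes, 25 were detected (58.1%, near the 52.8% of all protein-coding rows). The glutathione transferases GSTO1 (5818 counts) and MGST2 (2692 counts) stood at 543 and 297 FPKM, and GSTP1 and GSTM1 were listed at 0. Among sulfotransferases, SULT2A1, which acts on steroids and bile acids, stood at 127 FPKM, and SULT1A1 to SULT1A3 had 7051 counts together. UGT2B10 stood at 94.6 FPKM and UGT1A1, which conjugates bilirubin, at 15.2, whereas UGT2B15 had 3 counts. The acetyltransferase NAT2 and the methyltransferase NNMT were listed at 0. In the 4 drug metabolism lists as a whole, 68 of 128 genes (53.1%) were detected and 60 were below 1 FPKM, a share close to the 52.8% of all protein-coding rows.

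Oncofetal genes had a higher median than the drug metabolism lists as a whole, which had a median of 1.57 FPKM. Of 30 oncofetal and progenitor genes, 24 were detected with a median of 18.2 FPKM. AFP, the albumin of the fetal liver (ENSG00000081051; chromosome 4, 73431138 to 73456174, plus strand), had 23421 counts and 598 FPKM. The imprinted genes PEG10 and PEG3 stood at 287 and 124 FPKM. HMGA1 and HMGA2, chromatin proteins of embryonic tissue, stood at 249 and 127 FPKM. The fetal growth factor IGF2 stood at 66.6 FPKM, and its mRNA-binding proteins IGF2BP3 and IGF2BP1 at 42.4 and 22.1. LIN28B, an inhibitor of let-7 maturation, stood at 20.2 FPKM, while its paralog LIN28A was listed at 0. The surface proteoglycan GPC3, a marker of liver carcinoma, was moderate at 18.7 FPKM and 231 counts, and H19, a noncoding neighbour of IGF2, had 55 counts. CD44 and NANOG were listed at 0.

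Among Wnt and beta-catenin genes 19 of 21 were detected. DKK1, a secreted inhibitor of Wnt signalling (ENSG00000107984; chromosome 10, 52314296 to 52318042, plus strand), had 60075 counts and 3054 FPKM. It ranked 49 of all rows, close to TF. The other members were far lower, with GLUL, the glutamine synthetase of hepatocytes around the central vein, at 180 FPKM, LGR5 at 35.3, AXIN2 at 25.1, SP5 at 23.6, RNF43 at 18.4 and NOTUM at 17.5. CTNNB1, which encodes beta-catenin, stood at 180 FPKM.

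Of 27 tumour drivers and regulators 24 were detected. The survival genes BIRC5 and BCL2L1 stood at 108 and 97.6 FPKM, and NFE2L2, the regulator of NQO1 and AKR1C genes, at 101. The cyclin CCND1 stood at 60.9 FPKM and NRAS at 57.4. FGF19 and TERC were listed at 0.

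All 42 cell cycle genes were detected, 40 of them at or above 10 FPKM. The replication genes had a median of 67.1 FPKM, led by PCNA, the sliding clamp, at 662 and the thymidylate synthase TYMS at 218. The mitosis genes had a median of 85.3 FPKM, with PTTG1 at 284, CCNB1 at 281, CDK1 at 274 and TOP2A at 227. Cancer testis antigens, by contrast, were detected for 6 of 24 genes, led by PRAME at 7.98 FPKM and MAGEA3 at 6.01, and their median was 0. Over all tumour lists 115 of 144 genes (79.9%) were detected with a median of 20.3 FPKM, against 52.8% of protein-coding rows. The 144 include the 42 cell cycle genes, which raise this share.

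**Figure D4:**
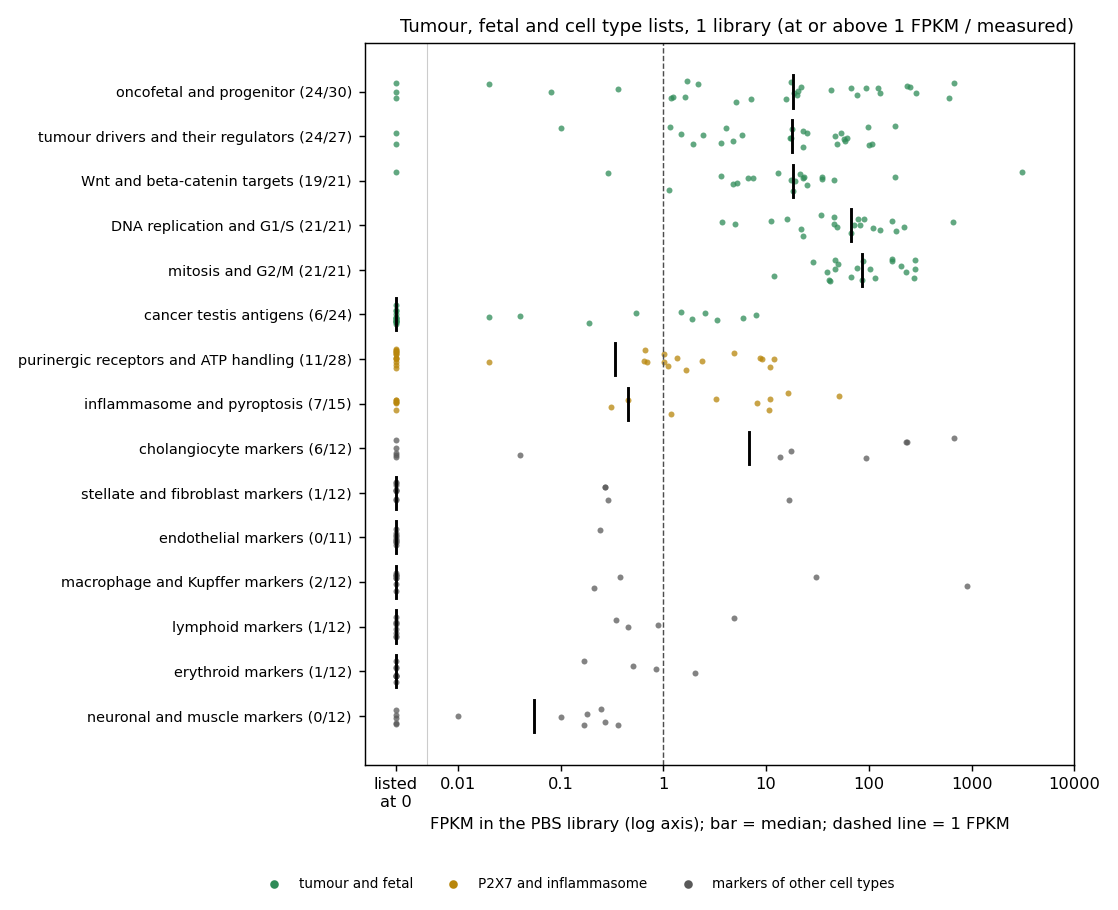
FPKM in the PBS library (x axis, log scale, with rows listed at 0 at the left) of each member of the tumour, fetal, purinergic and cell type lists (1 point a gene). Black bars are medians, and the numbers give members at or above 1 FPKM of those measured: 21 of 21 mitosis genes against 0 of 11 endothelial markers.

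Markers of endothelial, stellate, macrophage and lymphoid cells were mostly below the threshold, and cholangiocyte markers were mixed. Endothelial markers were detected for 0 of 11 genes and had 2 counts in all. Stellate and fibroblast markers were detected for 1 of 12 (ACTA2 at 16.6 FPKM), and COL1A1, COL3A1 and DCN were listed at 0. In the macrophage list 2 of 12 were detected, and 20090 of its 20751 counts came from LYZ (lysozyme), which stood at 894 FPKM. The other detected gene of that list was CD68 at 30.9 FPKM. CD163, MARCO and CSF1R were among the 8 macrophage genes listed at 0. Lymphoid markers were detected for 1 of 12 genes and had 104 counts in all, and PTPRC was listed at 0. Cholangiocyte markers were detected for 6 of 12 genes, near the 52.8% of all protein-coding rows. SPP1 (osteopontin) stood at 670 FPKM, EPCAM at 235, ANXA4 at 230 and KRT19 at 92.9, and KRT7, AQP1, MUC1 and TFF3 were listed at 0.

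The channel that the study's compounds address was at the limit of detection in the control. P2RX7 (ENSG00000089041; chromosome 12, 121132819 to 121188032, plus strand) had 2 counts, or 0.02 FPKM (0.0125 to 0.373 CPM). Of 28 genes for purinergic receptors and ATP handling, 11 were detected (39.3%, beside 52.8% of protein-coding rows) and the median was 0.335 FPKM. The ectonucleotidase NT5E (CD73) was highest at 11.9 FPKM, followed by the adenosine receptor ADORA2B at 10.8 and the related channel P2RX4 at 9.13. Of the 7 P2RX genes, 4 were at 0. Of 15 inflammasome and pyroptosis genes, 7 were detected (46.7%, beside 52.8% of protein-coding rows), with CASP4 at 51.4 FPKM. NLRP3, whose inflammasome acts downstream of P2X7 in macrophages, was listed at 0, as were IL1B and AIM2.

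Levels were compared within 20 pairs of related genes, most of them a form of the mature liver named first and a form of fetal, proliferating or other tissue named second. The second form was higher in 12 pairs and the first in 8. As the scheme does not hold for every pair, this tally does not count liver forms against other forms. Of these pairs 18 are described here, and in both of the others the second form was higher. Pyruvate kinase PKM stood 126 times above the liver form PKLR (110 to 145). The glucose carrier SLC2A1 stood 82.4 times above SLC2A2 (73.0 to 93.4), which serves the mature hepatocyte. Both pairs, of glycolysis and sugar uptake, had the form of other tissues as the higher one.

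Further pairs leaned the same way. Mitochondrial PCK2 stood at 34.2 FPKM (1240 counts) and cytosolic PCK1 at 0.03 (2 counts), IGF2 stood at 66.6 FPKM and IGF1 at 0.06 (1 count), and ARG2 stood 11.1 times above ARG1 (6.43 to 21.0). TFRC stood 36.6 times above TFR2 (29.05 to 46.8), and the synthetase ACSL4 9.46 times above ACSL1 (8.80 to 10.2). The pairs with the first form higher included ALB, 6.28 times above AFP (6.20 to 6.37), and the fatty acid binding protein FABP1 of liver, 4.97 times above FABP5 (4.68 to 5.30). MAT1A exceeded MAT2A by 1.17 times (1.12 to 1.22) and PYGL exceeded PYGB by 1.18 times (1.10 to 1.27), the smallest differences among the 14 pairs with a ratio. LDHA stood at 1481 FPKM and LDHB at 0.13 (1 count).

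**Figure D5:**
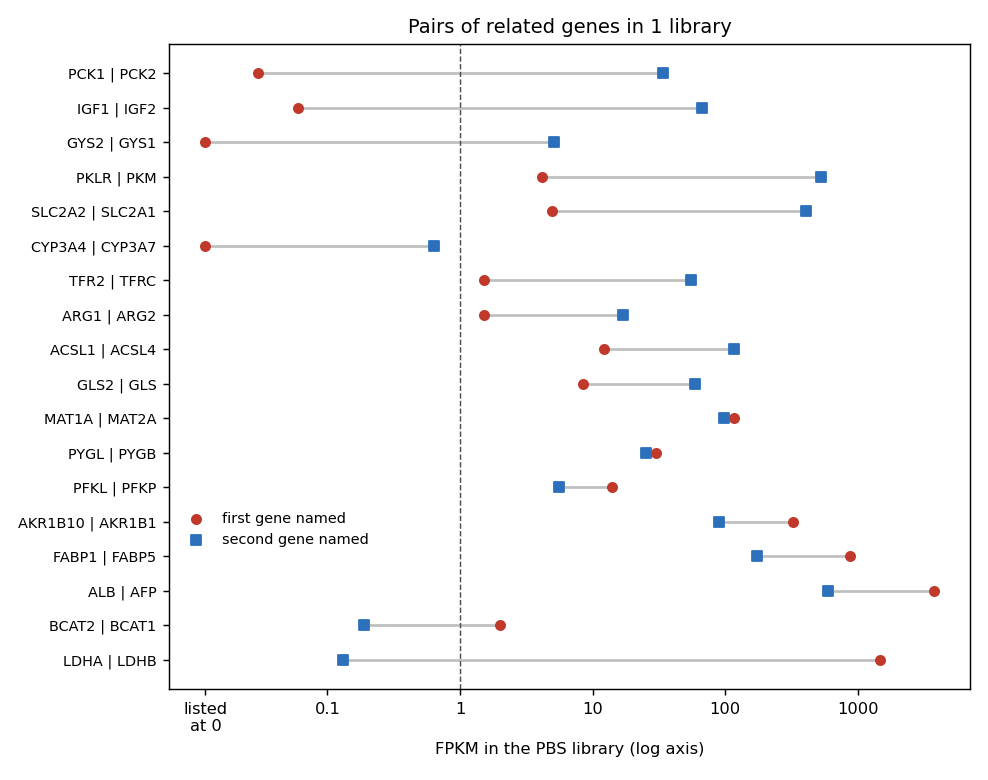
FPKM in the PBS library (x axis, log scale, with genes listed at 0 at the left) for 18 of the 20 pairs of related genes, with the first named gene as a circle and the second as a square. The second gene is the higher one in 10 pairs, among them PKM over PKLR, and the first in 8, among them ALB over AFP.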

How the data were processed

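RNA was extracted with an RNeasy kit and made into SMARTer mRNA-seq libraries, per the labels' protocols. The authors deposited expected counts per gene, estimates that need not be whole, and FPKM values per gene, each for 62680 rows. A mouse build, GRCm38, is the one named by the submitters' processing notes, but the rows carry human Ensembl identifiers, so which build was used is unclear. Not given in the sources used here: aligner, counting tool, annotation and strand setting. Overlapping and antisense genes are therefore uncertain. Of the rows above 0, 33.3% had an expected count more than 0.005 from a whole number, which may mark reads split between genes.

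The column of the PBS library was matched by the letter in its label. Ranks and shares used the deposited values, and expected counts were rounded for exact intervals and ratios (scipy 1.17.1, pandas 2.3.3). Ratios within a pair are of FPKM, with intervals from both counts at fixed lengths. Gene types and positions came from GENCODE release 29 (GRCh38), which matched 58082 rows with 99.6% of counts; 116 rows with no Ensembl identifier held 0.0853% of counts and stayed in totals. The share and ratio intervals were tested on simulated data. Lists, pairs and motifs were chosen with earlier results of these data known, so their counts are descriptions. Named were the 25 highest rows by counts and by FPKM, the 6 highest members of each list, members below 1 FPKM and the pairs; other members were named after their values were seen. Some genes of the lists are not reported here.

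Alternatives were thresholds of 0.5 and 5 FPKM, 10 counts and TPM, whole counts alone, shares of summed FPKM and shares without the mitochondrial genome. FPKM recomputed with full transcript length and the removal of repeated rows were added after the data were seen. The full length was the annotated length of genes with 1 transcript where it exceeded the implied length by 100 to 500 nt, and otherwise the implied length plus 290 nt; the limits of this rule were set after recomputed values were seen.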

Additional observations from a re-analysis of the deposited data

Results flagged for a closer look

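Counts were present in rows outside the gene comparisons. The 116 rows that carry no Ensembl identifier had a highest expected count of 2684.53 in 1 row (23.4 FPKM), above the 3 counts that a count of 0 allows. Of these rows 95 were at or above 1 FPKM, and together they held 0.0853% of the counts (0.0840 to 0.0866). What they are was not tested.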

How the results depend on the processing

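Shares depended on the scale. The share of the top 10 rows was 12.2% of counts, 6.94% without the mitochondrial genome and 20.9% of summed FPKM, and that of the top 100 rows was 29.5%, 23.1% and 50.9%. The secreted liver lists held 4.24% of counts, 4.73% without the mitochondrial genome, 3.43% of summed FPKM and 3.79% of summed FPKM with full transcript length. The ribosomal protein genes held 7.43%, 8.29%, 21.4% and 17.1% in the same order. The mitochondrial mRNAs held 7.04% of counts, 19.3% of summed FPKM and 12.3% with full length.

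The 12072 detected rows became 13520 at 10 or more counts, 13546 at 0.5 FPKM or more, 12133 at 1 TPM or more and 11381 with full length. Detected members of the liver, drug and tumour lists as wholes stayed within 1.5 times under each alternative run. Of 22 single lists, 5 moved by more at a threshold of 5 FPKM. Of 248 named genes, 103 changed rank by over 1.5 times when ranked by counts and 26 with full length. No pair of the 14 with a ratio changed order with full length. No paired analysis was possible because there was 1 library, and no replicate could be left out. Depth limits statements on genes with few counts.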

Other observations

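Long noncoding RNA was led by host genes of small nucleolar RNAs, which direct the modification of ribosomal RNA. SNHG5 stood at 604 FPKM and SNHG29 at 390.1, or 319.9 and 290.3 with full transcript length. SNHG6 stood at 195 FPKM (1054 counts) and SNHG16 at 187 (5376 counts), but with full length SNHG6 was lower, at 95.6 against 157. The nuclear RNAs MALAT1 and NEAT1 stood at 32.0 and 17.6 FPKM, HULC, a noncoding RNA named for liver cancer, at 11.7, and MIR122HG, the host transcript of the liver miRNA miR-122, at 2.92 FPKM and 91 counts. Of 30 long noncoding genes listed, 21 were detected, and MEG3, HOTAIR and HOTTIP were listed at 0. Replication-dependent histone genes, whose mRNAs mostly lack a poly(A) tail, were listed for 16 genes, of which 8 were measured. Of these 4 reached 1 FPKM, near the 52.8% of all protein-coding rows, and the highest was H1-2 at 6.47.

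Genes of iron handling were among the most abundant of the signal and metal lists, with 21 of 23 detected. The ferritin chains FTL and FTH1 stood at 6100 and 1323 FPKM, the metallothionein MT2A at 209.6 (546 counts, and 66.4 FPKM with its full length) and the ferrous exporter SLC40A1 at 37.2, and HJV was listed at 0. In the growth factor list 15 of 29 were detected (51.7%, near the 52.8% of all protein-coding rows). IGFBP1 stood at 63.3 FPKM, FGFR4 at 23.4 and its partner KLB at 14.7. The receptors for growth hormone and glucagon, GHR and GCGR, were listed at 0, as was IGFBP2.

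Median FPKM over detected protein-coding rows differed between chromosomes. The highest medians were on chromosomes 2 (21.7), 20 (20.7), 10 (19.5), 14 (18.6) and 17 (16.8), and the lowest on chromosomes 19 (6.71) and 9 (9.63). With full transcript length, chromosome 20 came first at 18.4, chromosome 2 followed at 18.3 and chromosome 19 remained last at 5.60. No control for gene content was made, and the cause was not tested.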
